A study of Mus musculus with 3 samples.

Results

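The phagocyte NADPH oxidase is the enzyme complex with which macrophages and neutrophils make superoxide. Its catalytic core in the membrane is gp91phox, encoded by Cybb, held together with p22phox, encoded by Cyba. On activation cytosolic subunits, among them p47phox (Ncf1) and p40phox (Ncf4), and the small GTPase Rac2 move to the membrane and switch the core on. Loss of the core or of the cytosolic subunits causes chronic granulomatous disease, in which phagocytes take up microbes but fail to kill them. Rac2 is also used outside the oxidase, in the cytoskeleton of many blood cells including T cells, while the core is mostly a myeloid and B-cell gene.

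Levels of the 5 subunit genes Cybb, Cyba, Ncf1, Ncf4 and Rac2, chosen by name, were examined in RNAseq libraries of sorted cells. These genes and the gene lists below were chosen with earlier results of these data known. The cells came from the Renca model, a mouse renal carcinoma line grown in the kidney of BALB/c mice. The labels name the line as Renca, and the study's text names its Renca Ch+ L+ form for these libraries. The 3 libraries, 1 for each subset, were labelled M1 (type-1 macrophages), M2 (type-2 macrophages) and CD4 (CD4 T cells). RNA of the macrophages came from 30 pooled tumors and that of the CD4 T cells from 4 pooled spleens, although a further label of the CD4 sample names tumors, and the labels give both day 14 and day 16. With 1 library for each subset no difference has a replicate check, and no test between subsets was made. A level was found for 4 of the 5 genes, out of 36835 genes in the table, and Cyba was not analysed here.

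Levels are in FPKM, the fragments of a transcript per kilobase of its length and per 1000000 mapped reads. For each transcript identifier the first row with a value in all 3 libraries was used, and the rows of a gene were summed. The table also holds further rows under the same identifiers. For the subunit genes the sum over all rows is given wherever it differs, and levels of other genes are from first rows unless all rows are named. From the level of 1 fragment on single transcripts, depth was estimated as 62200000 fragments in the library labelled M1, 59700000 in M2 and 71500000 in CD4. The 4 genes were then covered by 1782 fragments (Ncf1 in the library labelled M2) to 53572 (Cybb in CD4), and intervals given below are 95% exact binomial intervals from these estimates that cover counting error only.

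Marker genes went against the labels of the libraries M2 and CD4. All 15 T cell markers were highest in the library labelled M2. Their summed level there was 2323 FPKM, against 14.5 in M1 and 17.9 in CD4 (13438, 27.7 and 24.3 over all rows). Cd4 itself was at 166 FPKM in M2, 15.2 in CD4 and 0.870 in M1, and made up most of the sum in CD4. In M1 the largest was Il7r, at 8.15 FPKM. Cd5 alone was at 11066.5 FPKM in M2 over all rows and at 81.3 by its first row, so the sum of 13438 cannot be read as a level. Cd3e, a chain of the T cell receptor complex, was at 126 FPKM in M2, 0.131 in M1 and 0.141 in CD4. Cd247 was at 102 FPKM in M2 and listed at 0 in both others by first rows. Over all rows it was at 3.14 FPKM in M1 and 2.74 in CD4. All 12 macrophage markers were lowest in the library labelled M2, with a summed level of 625 FPKM against 8230 in M1 and 12321 in CD4 (626, 8238 and 17559 over all rows). The larger sum in CD4 is mostly due to further rows of C1qb, at 6644 FPKM over all rows and 1481 by its first row. Markers of other cells that carry the oxidase also had their highest sums in the library labelled M2. Neutrophil markers summed to 247 FPKM there, 88.3 in M1 and 37.8 in CD4, with 8 of 11 highest in it. Ly6g was listed at 0 in M2 and Camp at 0 in both others. The largest in M2 were S100a9 at 110 FPKM and S100a8 at 84.5. Mmp8 was highest in M1, at 15.9 FPKM against 1.08 in M2. Csf3r was highest in CD4, at 25.3 FPKM against 8.40 in M2. Over all rows the sums were 975, 457 and 406 FPKM, with 9 of 11 highest in M2 and Ly6g at 1.26 in it. Most of these sums came from further rows of Elane, at 723, 366 and 336 FPKM over all rows. By first rows Elane was at 0.351, 0.0152 and 0.0143 FPKM. B cell markers summed to 70.8, 1.62 and 11.8 FPKM in the same order, with 5 of 8 highest in it, Cd79b listed at 0 in it and Pax5 at 0 in all 3. Over all rows the sums were 93.1, 2.42 and 13.4 FPKM, with 7 of 8 highest in M2 and Pax5 at 6.49 in M2, 0.798 in M1 and 1.48 in CD4. Their part in the results below was not tested, and the share of all genes highest in each library was not computed. In pooled RNA, fewer cells of a type and less RNA per cell cannot be told apart. Libraries are named by their labels throughout.

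The subunit genes were identified by their annotated transcripts in build NCBIM37 (MM9). Cybb (ENSMUSG00000015340) lies on the reverse strand of chromosome X from 9012378 to 9064897, and its level was all in the transcript ENSMUST00000015484, with 13 exons and 570 codons. Ncf1 (ENSMUSG00000015950) is on the reverse strand of chromosome 5 from 134695923 to 134705495. Ncf4 (ENSMUSG00000071715), on the forward strand of chromosome 15 from 78075231 to 78093010, and Rac2 (ENSMUSG00000033220), on the reverse strand from 78389599 to 78403213, lie 296588 bases apart.

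Ncf1 has 6 annotated transcripts, each with a row, and only ENSMUST00000111275 was above 0, in all 3 libraries. This transcript has 11 exons and encodes p47phox in 390 codons. The transcript ENSMUST00000016094, with 404 codons, was listed at 0 in all 3. Both differ by 42 bases at the 3′ end of exon 10, at chr5:134697858-134697899 of NCBIM37, which are in the longer one only, so that only fragments reaching this place tell them apart. The junction of exons 10 and 11 in the transcript that carried the level, with the first 15 bases of exon 11 in capitals, is shown beside the first 30 of the 42 bases that follow exon 10 in the longer one, all in the direction of the gene.
Ncf1 ENSMUST00000111275 junction: cggatggcacaaaggACAATCCATCGACTC
Ncf1 ENSMUST00000016094 extra bases: gtgagcgccagggcgggccggggcctgggc
The 3′ end of Ncf1 overlaps Gtf2ird2 on the other strand, with 10.4% of the transcript's bases in exons of both. Gtf2ird2 was at 3.67 FPKM in the library labelled M2 and listed at 0 in the others, or 0.631 in M1 and 0.508 in CD4 over all rows, against 11.0 to 93.8 FPKM for Ncf1.

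Near copies could draw reads of 51 bases away from these genes. Words of 51 bases were compared in the direction of the transcripts only. A stretch shared with the other strand, as by Ncf1 with Gtf2ird2, was therefore not counted. Of the 51-base words in the main transcripts of Cybb, Ncf1 and Ncf4, 0 occur in this direction in protein-coding transcripts of other genes. In Rac2, 0.368% of the words do, and none of them is in its relatives Rac1 or Rac3.

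Cybb, the catalytic core, was at 152 FPKM in the library labelled M1, 158 in CD4 and 19.1 in M2. With all rows summed the level in M1 was 186 FPKM and the others were as before. The libraries labelled M1 and CD4 stood close together and M2 far below them. In M1 and CD4 the level was above 98.2% and 98.3% of the genes with a level above 0, and in M2 above 83.1%.

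Ncf1, the organizer subunit that bridges the cytosolic complex to the core, was at 93.8 FPKM in the library labelled M1, 89.6 in CD4 and 11.0 in M2. No further rows were listed for it, so its level does not depend on the choice of rows. Its order of libraries separated M2 from both others as for Cybb.

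Ncf4 encodes p40phox, which binds a lipid of the phagosome membrane. It was at 94.1 FPKM in the library labelled M1, 78.2 in CD4 and 21.4 in M2. Summed over all rows it was at 139 FPKM in M1, 113 in CD4 and 38.8 in M2. The added level in M1 and CD4 was that of ENSMUST00000148646, a retained intron transcript of 540 bases at the 3′ end of the gene, at 44.5 and 34.9 FPKM with a dash in M2. In M2 it was that of 2 further rows of the main transcript, at 8.37 and 8.996 FPKM. The library labelled M2 was lowest by either sum.

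Rac2, the hematopoietic GTPase of the complex, went the other way. It was at 211 FPKM in the library labelled M2, above 99.2% of the genes with a level, at 95.1 in CD4 and at 34.2 in M1. Its only annotated transcript had 3 rows, and the others held 124 and 26.4 FPKM in M1 and a dash in M2 and CD4. Summed over all rows Rac2 was at 185 FPKM in M1, so that 81.5% of its level in that library lies outside the first row. M2 was highest by both sums, while the order of M1 and CD4 differed between the sums.

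This dependence on rows was common in the table. Among genes with at least 1 FPKM over all rows, the sum was more than 1.5 times the level from first rows for 23.9% in the library labelled M1, 29.2% in M2 and 23.6% in CD4.

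**Figure D1:**
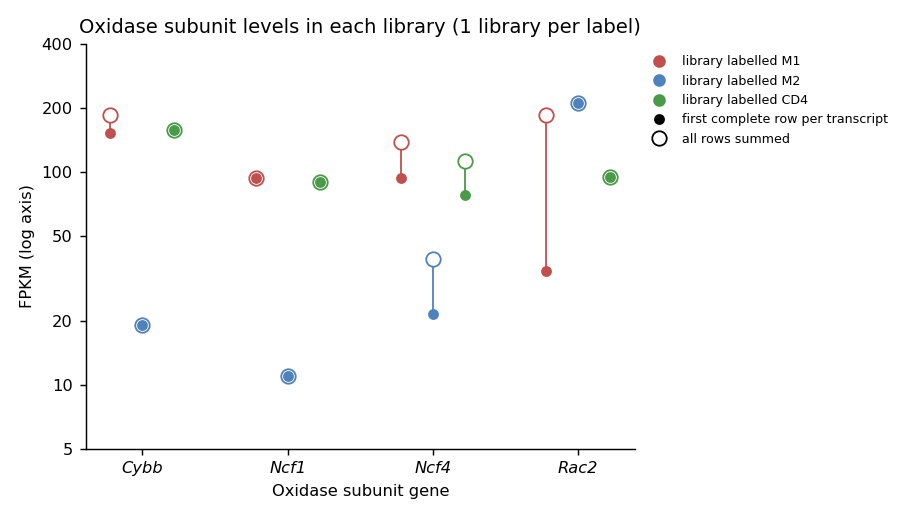
Levels of the 4 oxidase subunit genes in FPKM on a log axis, 1 point for each library (no replicates, no error bars). Filled points use the first complete row of each transcript and open points the sum of all rows. Cybb, Ncf1 and Ncf4 are lowest in the library labelled M2 by either sum, and the Rac2 point of the library labelled M1 moves from 34.2 to 185 FPKM.

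The library labelled M2 was compared with that labelled M1, by the labels a comparison of macrophage types. As shown above, the library labelled M2 held high T cell markers and low macrophage markers. The ratios are therefore not read as a difference between macrophage types. Cybb was 0.125 times its level in M1 (interval 0.122 to 0.129), Ncf1 0.117 times (0.111 to 0.123) and Ncf4 0.228 times (0.216 to 0.239). Rac2 was 6.18 times as high (6.02 to 6.35), but 1.14 times over all rows. On the log2(FPKM + 1) scale, which understates the change of low genes, the differences were -2.93, -2.99, -2.08 and 2.59 in the order Cybb, Ncf1, Ncf4 and Rac2. Summed over all rows they were -3.22, -2.99, -1.81 and 0.19.
At a difference of 1 on this scale, 3 of the 4 genes were lower in the library labelled M2, against 14.5% of the genes with at least 1 FPKM in either library (13.5% over all rows). Rac2 alone was higher, by the first rows only, against 17% of these genes (20.1% over all rows). Of these genes, 2.80% had a lower ratio than Cybb, 2.66% than Ncf1 and 5.12% than Ncf4. Few genes of this library thus stood lower against M1 than the core and its organizer.

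The macrophage markers gave the scale of this difference. All 12 were lower in the library labelled M2, with a median log2 difference of -3.06, against 0.10 over the genes with at least 1 FPKM. Csf1r, which encodes the growth factor receptor of macrophages, was 0.0549 times its level in M1, Itgam (CD11b) 0.0493 times and Lyz2 (lysozyme) 0.0553 times. Cd68 was 0.244 times and Emr1 (F4/80) 0.202 times. Cybb and Ncf1 lay within the range of these markers by either sum, and Ncf4 by the first rows only, its ratio over all rows being 0.280. In the T cell markers the median was 6.48, far above the value for Rac2.

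Against the library labelled CD4, the level in M2 was 0.121 times for Cybb (0.118 to 0.125), 0.122 times for Ncf1 (0.117 to 0.129) and 0.274 times for Ncf4 (0.260 to 0.288). Rac2 was 2.22 times as high (2.18 to 2.26) by either sum. The log2(FPKM + 1) differences were -2.98, -2.92, -1.82 and 1.14 in the same order. Again 3 of 4 were lower past the threshold, against 15.3% of the genes with at least 1 FPKM (14.2% over all rows), and Rac2 was higher, against 17.3% (20.5% over all rows). This comparison shares the library labelled M2 with the one before it, so both draw on the same values.

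**Figure D2:**
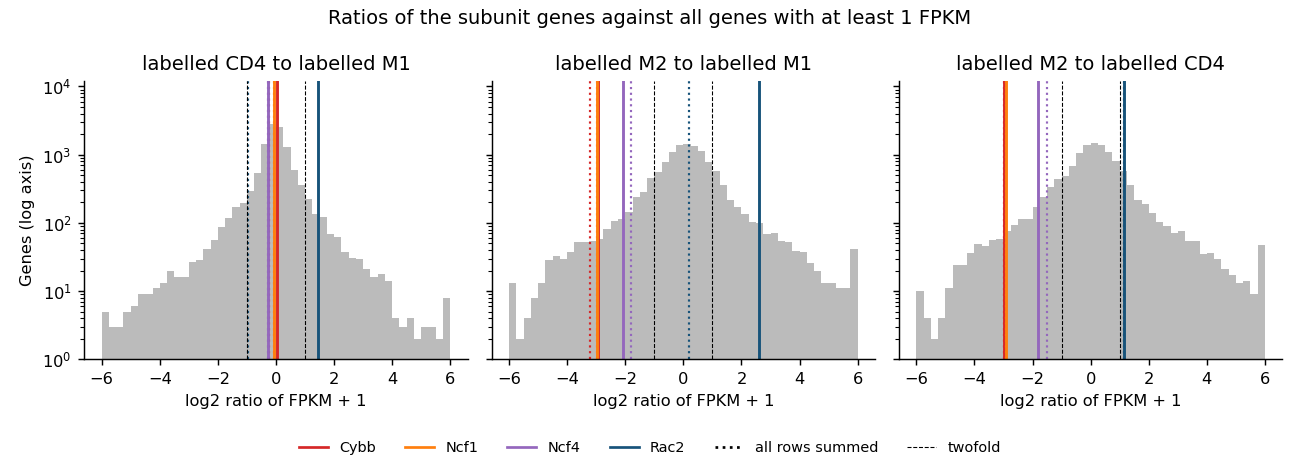
Distribution of the log2 ratio of FPKM + 1 over genes with at least 1 FPKM in either library, for the 3 pairs of libraries (gene counts on a log axis, ratios beyond 6 in the end bins). Solid lines mark the subunit genes from first rows, dotted lines the sums over all rows and dashed lines a difference of 1. Cybb and Ncf1 lie near -3 in both comparisons of the library labelled M2, and Rac2 in the pair CD4 and M1 moves from 1.45 to -0.95 between the row choices.

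The libraries labelled CD4 and M1, which both held high macrophage markers, differed little in Cybb, Ncf1 and Ncf4. Cybb was 1.03 times as high in CD4 as in M1 (1.02 to 1.05), Ncf1 0.954 times (0.934 to 0.975) and Ncf4 0.831 times (0.806 to 0.857). Over all rows the ratios of Cybb and Ncf4 were 0.848 and 0.816. Without replicates these small ratios cannot be set against a spread between mice. None of these 3 genes passed a log2 difference of 1, which 6.98% of the genes with at least 1 FPKM did upward and 7.24% downward (6.77% and 7% over all rows).
Rac2 was 2.78 times as high in CD4 (2.71 to 2.86), a log2 difference of 1.45, but 0.514 times as high over all rows, a difference of -0.95. Its direction between these libraries is therefore set by the choice of rows. Of the 12 macrophage markers 4 were higher in CD4 past the threshold and 0 lower, with a median of 0.78 against -0.01 over all genes with at least 1 FPKM. Emr1 was at 215 and 45.3 FPKM in CD4 and M1, and C1qa, a complement component of macrophages, at 1690 and 440.4. The CD4 to M1 ratio was 4.76 for Emr1 and 3.84 for C1qa, but 1.12 for Lyz2, 0.883 for Cd14 and 0.672 for Itgam, and 8 of the 12 markers were within the threshold, as Cybb was.

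Levels relative to Cybb within a library do not depend on the scaling between libraries. Ncf1 was at 0.616 of Cybb in the library labelled M1, 0.574 in M2 and 0.568 in CD4, and at 0.505 in M1 over all rows. Core and organizer thus kept a similar proportion in the 3 libraries, although their levels in M2 were far lower.
Ncf4 was at 0.618 of Cybb in M1, 0.496 in CD4 and 1.12 in M2. Over all rows it was at 0.746, 0.718 and 2.03, so that it was above Cybb only in the library labelled M2 by either sum. Rac2 was at 11.1 times Cybb in M2, 0.603 in CD4 and 0.224 in M1, the last being 0.996 over all rows. Rac2 made up 80.4% of the summed level of the 4 genes in M2, 22.6% in CD4 and 9.12% in M1, or 75.4%, 20.9% and 30.7% over all rows.

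**Figure D3:**
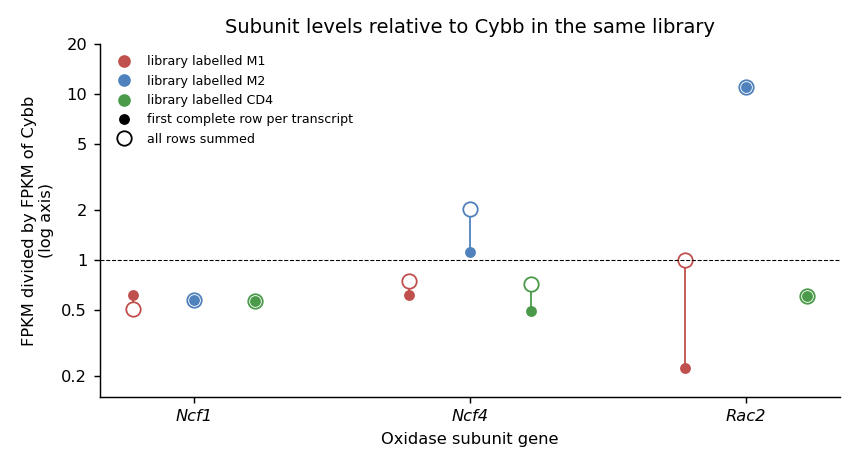
Level of each subunit gene divided by that of Cybb in the same library, on a log axis, with the dashed line at equal levels. Ncf1 lies between 0.505 and 0.616 in the 3 libraries, whereas Rac2 in the library labelled M2 lies at 11.1.

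The genes with the most similar pattern were found by the distance between log2(FPKM + 1) differences (CD4 to M1 and M2 to M1) among 7038 genes with at least 10 FPKM in a library. Over 3 libraries this likeness is a description. It was computed from first rows and not over all rows, by which Cybb, Ncf4 and Rac2 have other differences. The nearest to Cybb were Tnfrsf11a (distance 0.048), Pld4 (0.078) and Lyn (0.087), and Ncf1 ranked 6, at 0.128. Tnfrsf11a was at 11.5 FPKM in M1, 0.585 in M2 and 11.8 in CD4, and the added 1 FPKM understates its change in M2. Lyn, a Src family kinase of myeloid and B cells, was at 118 FPKM in M1, 15.2 in M2 and 117 in CD4. The nearest to Ncf1 were Tnfrsf11a, Lyn and Ctsh, and Cybb ranked 6 among them. Those nearest to Ncf4 were Zfp710, Dusp3 and Plekhg3, with Cybb at rank 363. The nearest to Rac2 were Ly9 (0.183), Il21r (0.348) and Tnrc6c (0.348). Tnrc6c was at 0.577 FPKM in M1, 10.8 in M2 and 3.80 in CD4, so that its change against M1 is understated too. Ly9, a lymphocyte surface receptor, was at 42.5 FPKM in M2, 17.0 in CD4 and 6.46 in M1.

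The promoters of the subunit genes were searched for patterns. RefSeq windows in build GRCm38.p6, from 250 bases before to 50 after the start, matched 2 of the 4 genes, Cybb and Ncf1. Ncf4 and Rac2 had no entry, so only Cybb and Ncf1 could be searched, and no subunit gene with other ratios could be set against them. The pattern GAAANNGAAA, the repeat that interferon regulatory factors are known to bind, was searched on both strands and is in 3.44% of all 32851 windows. It matched 3 times before the start of Cybb and 1 time before that of Ncf1. The matches are shown in capitals within 30 bases, in the direction of each gene (reverse strand), where a match of the other strand reads TTTCNNTTTC.
Cybb, 168 bases before the start, chrX:9469473-9469502: tagcagtagcTTTCATTTTCcagtgtattt
Cybb, 124 bases before the start, chrX:9469429-9469458: cacaagatctTTTCTCTTTCtgtagttttt
Cybb, 29 bases before the start, chrX:9469334-9469363: tctgataataGAAAAGGAAAcctattgccc
Ncf1, 82 bases before the start, chr5:134229688-134229717: aaaattctcaGAAAGTGAAAgactaagtct
The pattern GAGGAA, a core of sites of PU.1, was in 28.3% of all windows and matched 1 time in the Cybb window, just after the start, and 0 times in that of Ncf1. The combined pattern GGAANNGAAA, in 2.72% of windows, overlapped this match in Cybb and was not in the Ncf1 window. These patterns were chosen with the windows in view, and a match is a description of letters and not a site shown to be used.

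Transcription factors known to drive oxidase genes in myeloid cells were listed with them. Sfpi1, which encodes PU.1, was at 139 FPKM in the library labelled M1, 112 in CD4 and 7.51 in M2. In the same libraries Cebpa was at 50.2, 53.3 and 11.2 FPKM, and Cebpb at 106, 62.6 and 21.96. All 3 were past the threshold lower in M2 than in either other library, as were Cybb, Ncf1 and Ncf4, and none passed it between CD4 and M1. Among all genes with at least 1 FPKM, 14.5% were lower in M2 than in M1 and 15.3% than in CD4. Between CD4 and M1, 6.98% were higher and 7.24% lower in CD4. A link of these factors to the subunit levels was not tested. Irf8 was not analysed here.

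Among 6 other components of the complex, 2 were past the threshold lower in the library labelled M2 against M1 and 0 higher, and over all rows 2 were lower and 1 higher. The shares among all genes with at least 1 FPKM were, as above, 14.5% lower and 17% higher by first rows. Rac1, the widely expressed relative of Rac2, was 1 of the lower ones, at 214 FPKM in M1, 195 in CD4 and 101 in M2. In M2 Rac2 was thus above Rac1, and in M1 and CD4 below it by either sum. Rac3 was listed at 0 in M1, at 0.518 in M2 and at 2.85 in CD4. BC017643, which encodes the chaperone Eros that gp91phox needs, was at 49.0, 46.6 and 31.0 FPKM in M1, CD4 and M2, and Rap1a, a GTPase that copurifies with the core, at 33.2, 32.3 and 19.4. Hvcn1, the proton channel that offsets the charge moved by the oxidase, was highest in M2, at 20.4 FPKM against 15.6 in CD4 and 11.5 in M1, without passing the threshold.

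Of 14 genes for enzymes and exchange factors that act on the oxidase or on Rac, 13 had a level, and Syk was not analysed here. Against M1, 5 were lower in the library labelled M2 and 1 higher (4 and 2 over all rows), beside 14.5% and 17% of all genes with at least 1 FPKM. The gene that is higher by the sum over all rows but lower by first rows is Btk. Prkcd, a kinase that phosphorylates p47phox, was at 11.6 FPKM in M2, 127 in M1 and 72.8 in CD4. Pla2g4a, the cytosolic phospholipase A2, was at 1.13, 22.2 and 19.1 FPKM in M2, M1 and CD4, and Pak1 at 2.89, 21.6 and 25.2. Prkcb was at 30.2, 3.13 and 50.8 FPKM, and at 10.1 in M1 over all rows, so that it was past the threshold higher in CD4 than in M1 by both sums. Btk was at 5.35 FPKM in M2 and 40.6 in M1, but a further row of M2 took its sum to 104937, a value that cannot be read as a level. The Rac exchange factors Vav1 (46.6 FPKM in M2, 51.3 in M1 and 63.1 in CD4), Prex1 (32.6, 38.3 and 37.5) and Dock2 (72.8, 42.1 and 35.1) did not pass the threshold in M2 against M1. Vav3, a further one, was lower past it, at 4.85 FPKM in M2, 13.1 in M1 and 15.2 in CD4.

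Other members of the oxidase family were listed at or near 0, and a 0 in this table need not be a measured absence. Among 9 genes of the other NADPH oxidases and their partners, the highest from first rows was Nox4, the kidney oxidase, at 0.155 FPKM in M1, 0.314 in M2 and 0.469 in CD4. Of the 9, 7 were listed at 0 in M1, 6 in M2 and 6 in CD4, and over all rows Nox1 was at 1.11 FPKM in M2.

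Of 6 genes for NADPH supply and the pentose phosphate pathway, 3 were lower in M2 than in M1 and 1 higher by first rows. Over all rows 2 were lower and 1 higher. The shares among all genes by first rows were 14.5% lower and 17% higher. G6pdx and Pgd, both oxidative enzymes of the pentose phosphate pathway, were at 17.1 and 46.5 FPKM in M2, 63.2 and 154 in M1 and 58.8 and 111 in CD4. Me1 was higher in M2, at 7.21 against 2.88 FPKM in M1. Tkt was listed at 0 in all 3 from first rows, and at 179, 124 and 49.6 FPKM in M1, M2 and CD4 over all rows, which shows how a 0 here can come from the row choice.

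Of 19 genes listed for superoxide and peroxide handling, 4 were lower in M2 against M1, 2 higher and 13 within the threshold. Their median was -0.16. Among all genes with at least 1 FPKM 14.5% were lower and 17% higher, with a median of 0.10. The lower ones were Gpx1 (130 FPKM in M2 and 650.4 in M1), Prdx5 (58.6 and 218), Txn1 (40.2 and 112) and Nfe2l2 (16.9 and 72.6). Over all rows Txn1 and Nfe2l2 no longer passed and Prdx1 did, at 91.1 against 206 FPKM. Gpx3, a secreted glutathione peroxidase made by kidney tubules, was higher, at 334 FPKM in M2, 147 in M1 and 191 in CD4. Kidney epithelium markers also summed highest in M2 (193 FPKM, 73.3 in M1 and 94.5 in CD4). Of these 9, 5 were highest in M2 and 3 in CD4, or 4 and 4 over all rows. The largest in M2 were Cdh16, Krt8 and Krt18, at 87.8, 54.6 and 35.8 FPKM. Slc12a1, Slc34a1 and Lrp2 were highest in CD4 by first rows, at 1.47, 1.82 and 0.501 FPKM against 0.519, 1.21 and 0.452 in M2. The part of kidney cells was not tested. The other one past the threshold was Gclm, listed at 0 in M1, which may not be a measured low level, and at 13.2 FPKM in M2 and 9.32 in CD4. Sod1 and Cat, which remove superoxide and peroxide directly, were at 59.2 and 57.6 FPKM in M2, 49.0 and 48.2 in M1 and 42.9 and 61.7 in CD4.
Between the libraries labelled CD4 and M1, 1 of the 19 was higher (Gclm, with its 0 in M1) and 1 lower, beside 6.98% and 7.24% of all genes. Over all rows Gsr was also higher, at 6.82 FPKM in CD4 and listed at 0 in M1. The lower one was Prdx6, at 24.2 FPKM in CD4 and 55.5 in M1. The peroxidases that use the peroxide of the oxidase in granulocytes were low, with Mpo at 0.822 FPKM in M2 and 0.0715 in M1 and Epx and Lpo at most 0.00556.

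**Figure D4:**
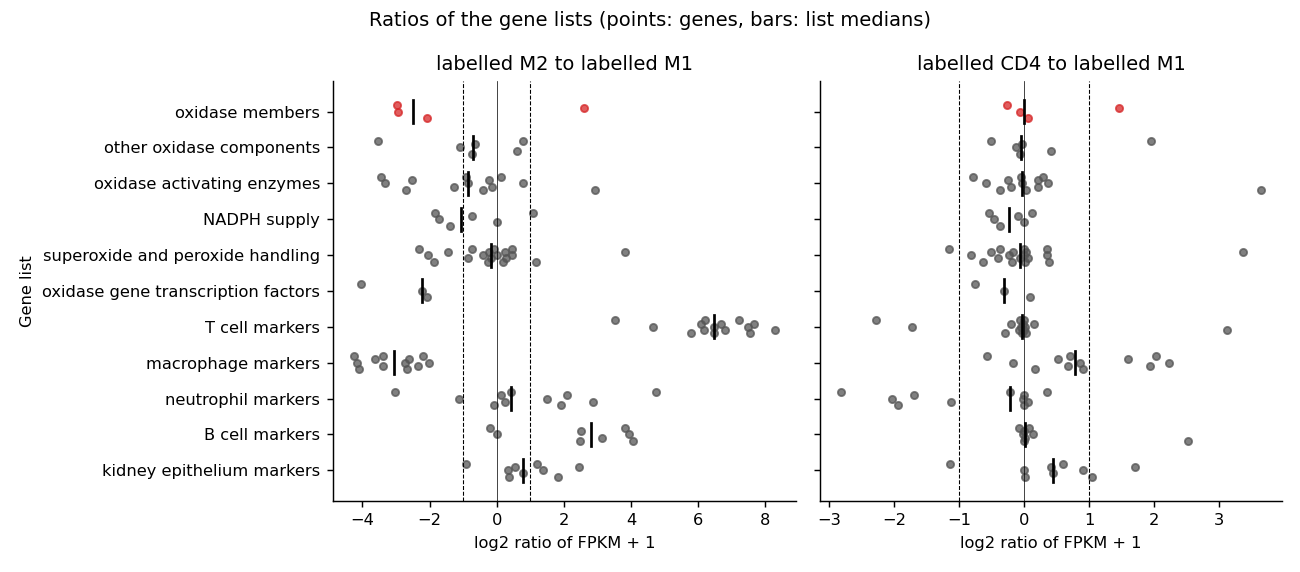
The log2 ratio of FPKM + 1 for each gene of the lists (points, 1 per gene, first rows) with list medians (bars) and dashed lines at a difference of 1, for the library labelled M2 against M1 (left) and CD4 against M1 (right). On the left 3 of the 4 oxidase genes (red) lie among the macrophage markers and Rac2 lies on the other side, and on the right Cybb, Ncf1 and Ncf4 lie near 0.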

How the data were processed

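Sorted cells of 3 labelled subsets were sequenced by the authors, with 1 library each. The unit of the deposited values is FPKM. Per the paper's methods, the authors trimmed paired reads of 51 bases by quality and aligned them to MM9 with Bowtie 0.12.8 and TopHat 1.4.1. Cufflinks 2.1.0, guided by Ensembl release 67, assembled transcripts and estimated their levels. The labels also name Cuffdiff. How the 3 assemblies were joined into rows is not given in the sources used here. Fragments of overlapping variants are divided among them by the Cufflinks model, and the library kit is not stated to keep strand.

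There were 135070 rows, 10182 of them with no identifier. Of the identifiers, 97.6% were found in GENCODE for NCBIM37 (the genes of Ensembl release 65). A dash stood in 23458 to 28490 rows of a library. Per identifier the first row with values in all 3 libraries was taken and summed per gene. Ratios are of FPKM, and differences are log2 of FPKM with a pseudocount of 1, read at a threshold of 1. No test was possible and none was made.

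For depth, FPKM was multiplied by length in protein-coding genes with a single transcript, and the mode of the low products was taken as 1 fragment. Alternatives were all rows summed, a dash as 0, the highest row, coding transcripts only, scaling by total or by median ratio, a pseudocount of 0.1 and a minimum of 1 FPKM. The calculations were tested on simulated data. Genes named were the members, the genes of lists for the oxidase, its partners and cell types, and the 3 genes most like each member. Gtf2ird2 is named outside this rule, for its overlap. The members and lists were chosen with earlier results of these data known. Cyba, Irf8 and Syk were not analysed here. The levels of some list members are not reported here by themselves and are part of the list counts, sums and medians. Scripts ran in Python 3.11.15 (pandas 2.3.3, numpy 2.4.6, matplotlib 3.10.9, scipy 1.17.1).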

Additional observations from a re-analysis of the deposited data

Results flagged for a closer look

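Rows that did not enter the levels held signal for 3 of the subunit genes, above the level of 3 fragments. For Rac2 they held 151 FPKM in the library labelled M1. For Cybb they held 33.5 FPKM in the library labelled M1. For Ncf4 they held 44.5 FPKM in M1, 17.4 in M2 and 34.9 in CD4. No such rows were above 0 for Ncf1.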

How the results depend on the processing

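No paired analysis was possible because each subset had 1 library. With no replicates, a value was taken as moved when it differed by over 1.5 times. For Rac2 in the library labelled CD4 against M1, the log2 difference of 1.45 reversed to -0.95 with all rows summed and to -0.39 with the highest row. In M2 against M1 that of 2.59 was 0.19 and 0.76 under these settings. Relative to Cybb in M1, Rac2 went from 0.224 to 0.996 and 0.817, by construction of the added rows. Ncf4 relative to Cybb in M2 went from 1.12 to 2.03 with all rows summed. The differences of Cybb, Ncf1 and Ncf4 in the 3 comparisons stayed within 1.5 times under every setting run. Of the counts over all genes, those higher and lower in CD4 than M1 went from 809 and 839 to 1647 and 1537 with a pseudocount of 0.1, and those lower to 1425 with a dash as 0. Those higher and lower in M2 than M1 went from 2110 and 1806 to 3798 and 2728 with that pseudocount, and those higher to 3508 when scaled to a total of 1000000. Those higher in M2 than CD4 went from 2156 to 3740 and 3469 under these settings. The cause was not tested. FPKM carries no depth, and the counting intervals rest on estimated depths.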
